A study of Mus musculus with 2 samples.

Results

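Cones of the mouse retina that express the middle-wave opsin gene Opn1mw were taken from single-cell RNA libraries of NaIO3-injected and PBS-injected mice. A cone was a barcode with at least 1500 UMIs (unique molecular identifiers, one per captured RNA molecule) and at most 15% mitochondrial UMIs. It also had at least 10 UMIs, and at least 0.5% of its UMIs, from the 5 cone genes Arr3, Opn1sw, Opn1mw, Pde6h and Gnat2. Barcodes with 0.1% or more of C1qa, C1qb and C1qc, or with 1% or more of Apoe, Glul, Slc1a3 and Rlbp1, were left out. Of the 395 cones found among 12036 barcodes past the depth and mitochondrial limits (15988 in all), 241 had over 20% of their opsin UMIs (Opn1sw plus Opn1mw, at least 5) from Opn1mw. These 241 cells, 132 from the NaIO3 library and 109 from the PBS library, are the Opn1mw-expressing cones. Another 144 cones (51 and 93) were Opn1sw-dominant, and 10 (9 and 1) had too few opsin UMIs to place.

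Mice had been given 20 mg/kg NaIO3 (sodium iodate, an oxidant that injures the retinal pigment epithelium) intravenously, or an equal volume of PBS, and eyes were taken on day 7. Retinas of 6 mice were pooled per group, digested with papain and made into 1 library, so each group is 1 sample. Strain, age and sex are not in the labels used here. With 1 library per group no test between treatments was possible, and the intervals below are exact 95% intervals for counting error only. They do not cover differences between mice or between preparations. The labels call both libraries CD11b+ microglia, and beads against CD11b are mentioned for the NaIO3 pellets alone, so shares of all barcodes can be set by that selection. CD11b marks microglia and other myeloid cells, so such a selection would remove cones.

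Cones are the photoreceptors of daylight and colour vision. In both rods and cones light isomerises the chromophore of an opsin, the opsin activates transducin, transducin activates a cGMP phosphodiesterase, and the fall in cGMP closes cation channels in the outer segment. Mouse cones make a short-wave opsin (Opn1sw), a middle-wave opsin (Opn1mw) or both. The middle-wave opsin is found toward the dorsal retina and the short-wave opsin dominates ventrally. In mouse, the thyroid hormone receptor gene Thrb is needed for Opn1mw expression and holds Opn1sw down.

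Both opsin genes define the cells, and their promoters are shown here because the opsin choice is the property the cells were chosen on. Each runs from 250 bases before the annotated start to 50 bases after it (RefSeq, GRCm38.p6), written 5′ to 3′ on the gene's own strand. The Opn1mw promoter lies at chrX:74127216-74127515 on the plus strand and the Opn1sw promoter at chr6:29380464-29380763 on the minus strand. The Opn1sw window lies inside the longer GENCODE span of the gene given below, so it is placed by the RefSeq start alone. Capitals mark matches, on either strand, to 3 short motifs. They are TAATC, the core bound by the photoreceptor homeobox factor CRX, GGTCA, the nuclear receptor half-site core, and TATAAA, the TATA box.
Opn1mw: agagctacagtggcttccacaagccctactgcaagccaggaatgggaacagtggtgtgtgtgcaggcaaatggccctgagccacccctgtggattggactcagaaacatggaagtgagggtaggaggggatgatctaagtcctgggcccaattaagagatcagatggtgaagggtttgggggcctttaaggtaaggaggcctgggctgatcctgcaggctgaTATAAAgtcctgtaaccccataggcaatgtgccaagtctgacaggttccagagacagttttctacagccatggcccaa
Opn1sw: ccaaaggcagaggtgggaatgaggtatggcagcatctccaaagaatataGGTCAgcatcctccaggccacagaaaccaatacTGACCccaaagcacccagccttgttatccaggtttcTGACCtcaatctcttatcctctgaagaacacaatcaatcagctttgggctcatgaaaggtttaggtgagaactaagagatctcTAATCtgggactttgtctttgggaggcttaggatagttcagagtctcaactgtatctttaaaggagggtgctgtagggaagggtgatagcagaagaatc
The Opn1mw window held 1 TATAAA, at position -28 from the start, and neither of the other motifs. The Opn1sw window held 1 TAATC at -49 and 3 GGTCA, at -201 on the gene's strand and at -168 and -132 on the opposite strand. Of 32544 promoters of this length, 21.9% held TAATC, 40.5% GGTCA and 13.6% TATAAA, so each match is common and describes the letters only.

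The libraries held 75981079 UMIs (NaIO3) and 26605477 UMIs (PBS). Opn1mw-expressing cones had medians of 10816.5 UMIs and 3872 genes in NaIO3, against 10091 UMIs and 3536 genes in PBS, and their summed UMIs were 1681324 and 1655743. Mitochondrial UMIs differed more, with medians of 4.91% in NaIO3 and 10.9% in PBS. Of the barcodes, 24 occurred in both libraries, 1 of them in an Opn1mw-expressing cone. Doublet calling marked 1.91% of NaIO3 cells and 0 of the 5573 scored in PBS, where it therefore failed. It marked 0 Opn1mw-expressing cones.

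RNA of rods was unevenly spread over these cones. The 8 summed rod genes took a median of 1.48% of UMIs in NaIO3 cones (highest 4.25%) and 1.83% in PBS cones (highest 8.58%), while rods themselves had medians of 3.98% and 6.33%. Over 3% was reached by 7 of 132 NaIO3 cones (5.30%) and by 43 of 109 PBS cones (39.4%). These 43 PBS cones had a median of 22186 UMIs. Their Opn1mw stood at 2205 CPM (the UMI count scaled to a common total of summed UMIs) and their Gngt1, the rod transducin gamma subunit, at 12516 CPM, whereas the other 66 PBS cones, with a median of 8915.5 UMIs, had 6656 and 4824 CPM. Markers of other cell types were also unevenly spread. In NaIO3, 17 of 132 cones passed a limit set on bipolar (10 cells), Müller glia (3), microglia (2) or vascular (5) markers, against 0 of 109 in PBS. Summed bipolar markers stood at 740 CPM in NaIO3 and 170 CPM in PBS, with 11 of 11 measured members at least 1.5-fold higher and Trpm1, Isl1 and Grik1 at 0 in PBS. Summed Müller markers stood at 950 and 170 CPM, with 9 of 9 higher, and microglia markers at 70.8 and 19.9 CPM. Per cell, the bipolar sum ran to 1.25% of UMIs in NaIO3 and 0.0630% in PBS (medians 0.0252% and 0.0121%), and the Müller sum to 1.23% and 0.271% (medians 0.0491% and 0.0145%). Each result below is therefore also given, where it moves by more than 1.5-fold or changes direction, without the cells over 3% rod genes or without the 17 cells. Both limits were chosen after the data had been seen, and the part of these cells in a result was not tested beyond that. The 3% limit is also closer to the level of rods in NaIO3 than in PBS, so it may not remove rod RNA equally. In the cells kept, Gngt1 stood at 3067 CPM in NaIO3 and 4824 CPM in PBS, against 5789 and 15940 CPM in rods. Ratios without the cells over 3% rod genes all carry this limit. With the cells over 3% rod genes left out, PBS has fewer summed UMIs, so the floor of 3 UMIs used for genes with no UMI weighs more and bounds on their ratios are lower by construction.

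The label of the cells as cones, though not their opsin class, was set against cone genes that the rule had not used. Pde6c, the catalytic subunit of the cone phosphodiesterase, stood at 707 CPM in NaIO3 and 1236 CPM in PBS cones, against 4.84 and 3.62 CPM in rods of the same libraries. Gngt2, the cone transducin gamma subunit, stood at 2698 and 3584 CPM in the cones and at 24.6 and 10.8 CPM in rods. These rods were chosen for few UMIs of the 5 cone genes of the rule, which favours low cone RNA in them. 

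The opsin mixture differed between the libraries. Opn1mw-expressing cones were 72.1% of NaIO3 cones with at least 5 opsin UMIs (132 of 183, interval 65.04% to 78.5%) and 54.0% of such PBS cones (109 of 202, 46.8% to 61.0%). When each cell was thinned to 1500 UMIs the shares were 52.7% (48 of 91, 42.0% to 63.3%) and 47.6% (79 of 166, 39.8% to 55.5%), and these intervals overlapped. Thinning left 41.3% of NaIO3 cones and 14.4% of PBS cones with under 5 opsin UMIs, so the thinned shares rest on different fractions of the cones. Of all barcodes past the limits, the Opn1mw-expressing cones made up 1.79% in NaIO3 and 2.34% in PBS.

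Cones with both opsins were the smaller group among them. No Opn1sw UMI was found in 85 of 132 NaIO3 cones (64.4%, 55.6% to 72.5%) and in 61 of 109 PBS cones (56.0%, 46.1% to 65.5%). Opn1mw gave over 50% of the opsin UMIs in 109 of 132 and 84 of 109. On the other side, 27 of 51 NaIO3 Opn1sw-dominant cones (52.9%) and 18 of 93 PBS ones (19.4%) had no Opn1mw UMI. Opsin UMIs per cone were fewer in NaIO3, with medians of 30 and 80 in the Opn1mw-expressing cones, so a minor opsin was less detectable there. Cells just inside the threshold had 20.8%, 20.9% and 21.6% Opn1mw in NaIO3 and 20.2%, 20.5% and 20.8% in PBS, and those just outside had 20.0%, 19.7% and 19.2%, and 19.3%, 19.2% and 18.5%. Within 5 percentage points of the threshold lay 11 NaIO3 and 27 PBS cones, so the split divides a continuous range in both libraries. Rods, which should lack Opn1mw, had an Opn1mw UMI in 0.745% of NaIO3 cells and 1.97% of PBS cells, at median depths of 3073.5 and 2755 UMIs, but they were chosen with at most 0.1% of cone genes, which limits that share.

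**Figure D1:**
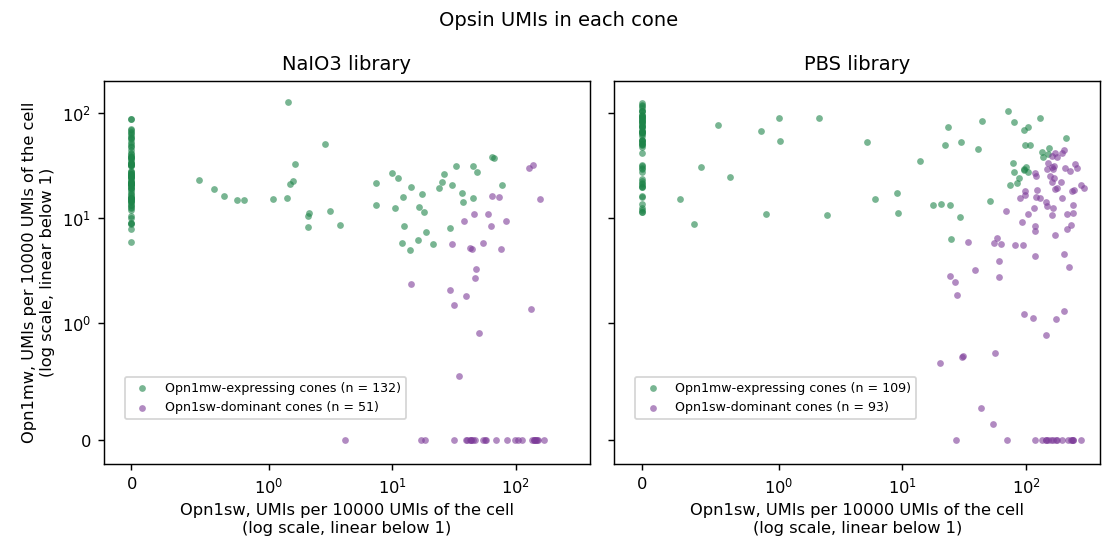
Opsin UMIs in each cone of the NaIO3 (left) and PBS (right) libraries, per 10000 UMIs of the cell, on log axes that are linear below 1. Each point is a cone. Opn1mw-expressing cones form a column at 0 Opn1sw (85 cells in NaIO3, 61 in PBS) and a tail that meets the Opn1sw-dominant cones.

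**Figure D2:**
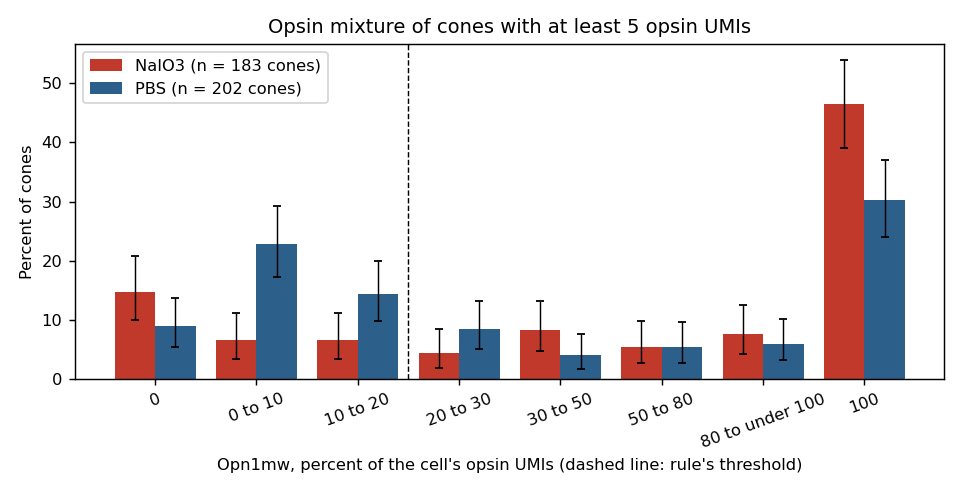
Share of cones with at least 5 opsin UMIs by the percent of opsin UMIs that came from Opn1mw, in NaIO3 (183 cones) and PBS (202 cones), with exact 95% intervals as lines. Cones with Opn1mw alone were 46.4% in NaIO3 and 30.2% in PBS, and those over 0 and up to 10% were 6.56% and 22.8%.

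Across all genes, levels in NaIO3 cones and PBS cones were compared by the ratio of their CPM. Of 7301 genes with at least 20 CPM in either and 20 summed UMIs, 712 (9.75%) were at least 2-fold higher in NaIO3 and 224 (3.07%) at least 2-fold lower. The median log2 ratio of 9193 genes was 0.22, in a comparison where mitochondrial, rod and rule genes took a larger share of UMIs in PBS. TMM scaling (edgeR's trimmed mean, which centres the bulk of genes) put that median at -0.02 and gave 400 higher and 412 lower. The higher share of calls was thus 76.1% with total UMIs and 49.3% with TMM. With totals that leave out mitochondrial, rule and rod genes, 548 were higher and 371 lower. The PBS sums came for the most part from the 43 cones over 3% rod genes, which were deeper than the other PBS cones (medians of 22186 and 8915.5 UMIs). The NaIO3 sums came mostly from cones under that limit. Without the cells over 3% rod genes, more genes were at least 2-fold lower in NaIO3, as given in the last section. Members of gene lists are counted below as at least 1.5-fold apart at 10 CPM or more in either group. A gene far below 10 CPM in PBS passes this limit only through its NaIO3 level and can then only count as higher. Counts and medians of lists with many such genes are in part set by the limit. This also holds for the bipolar and Müller markers above, and the background is under the same limit. The background for these counts is 26.9% higher and 10.1% lower of 9193 genes. It is 28.3% and 16.6% of 9382 genes without the cells over 3% rod genes, 25.5% and 10.9% of 9008 genes without the 17 cells with other types' markers, and 16.5% and 17.7% of 9088 genes with TMM scaling.

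The genes of the cone light response are described first. Those used by the rule are given with no more than their values, since cells were chosen on them and the 0.5% minimum limits how low they can go. Opn1mw stood at 2228 CPM in NaIO3 cones and 3784 CPM in PBS cones (ratio 0.589, 0.565 to 0.613). Per cell it ran from 4.96 to 126 UMIs per 10000 in NaIO3 (median 21.1) and from 6.38 to 124 in PBS (median 49.8), so the cells of both libraries span the same range with a lower middle in NaIO3. Arr3, the cone arrestin that shuts off the opsin, stood at 730 and 2993 CPM. Gnat2, the cone transducin alpha subunit, stood at 835 and 1969 CPM, and Pde6h, the inhibitory subunit of the cone phosphodiesterase, at 5264 and 7116 CPM. Opn1sw stood at 684 and 1963 CPM. All 5 were lower in NaIO3, and lower still without the cells over 3% rod genes, where Opn1mw was at 2277 against 6656 CPM (ratio 0.342) Arr3 at 727 against 5086 CPM (0.143), Gnat2 at 846 against 3232 CPM (0.262) and Pde6h at 5372 against 12264 CPM (0.438).

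Of the 19 other measured light-response genes, 1 was at least 1.5-fold higher in NaIO3 and 6 lower, with a median log2 ratio of -0.31. The lower 6 were Pde6c, Rgs9bp, Guca1a, Guca1b, Rcvrn and Pdc. Pde6c stood at 707 and 1236 CPM (0.572, 0.532 to 0.614). Guca1a, the calcium sensor that stimulates guanylate cyclase, stood at 2299 and 4564 CPM (0.504, 0.484 to 0.524), and Rcvrn, recoverin, which restrains the opsin kinase, at 1779 and 3616 CPM (0.492, 0.471 to 0.514). Rgs9bp, which anchors the protein that ends transducin signalling, stood at 243 and 426 CPM. The transducin subunits Gnb3 and Gngt2 differed less, at 1944 and 2235 CPM (0.870, 0.830 to 0.912) and at 2698 and 3584 CPM (0.753, 0.724 to 0.783). Cnga3, a subunit of the cone channel, stood at 75.5 and 81.5 CPM with an interval that includes no difference (0.926, 0.721 to 1.19), and its partner Cngb3 at 196 and 258 CPM (0.759, 0.655 to 0.878). The 1 higher gene was Slc24a2, the cone sodium/calcium/potassium exchanger, at 293 and 147 CPM (1.99, 1.70 to 2.33). The differences were thus uneven, and Cnga3 stood closest to its PBS level among the lower genes given.

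These differences changed when the cells over 3% rod genes, which in PBS were also the deeper ones, were left out. Then 9 of 19 were lower and 3 higher, and the cone-type genes lay further apart. Pde6c was then at 718 against 2059 CPM (0.349), Gngt2 at 2726 against 6178 CPM (0.441), Gnb3 at 1968 against 3680 CPM (0.535), Cnga3 at 78.5 against 146 CPM (0.536, 0.404 to 0.715) and Cngb3 at 199 against 434 CPM (0.459). Guca1b and Pdc, which rods share, went the other way. Pdc, phosducin, which binds transducin, was at 2168 and 6810 CPM in all cones (0.318) and at 2096 and 3697 CPM without those cells (0.567). Guca1b was at 288 and 1014 CPM (0.284) in all cones and at 283 and 255 CPM without them (1.11, 0.918 to 1.34). Slc24a2 was at 302 and 238 CPM (1.27).

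**Figure D3:**
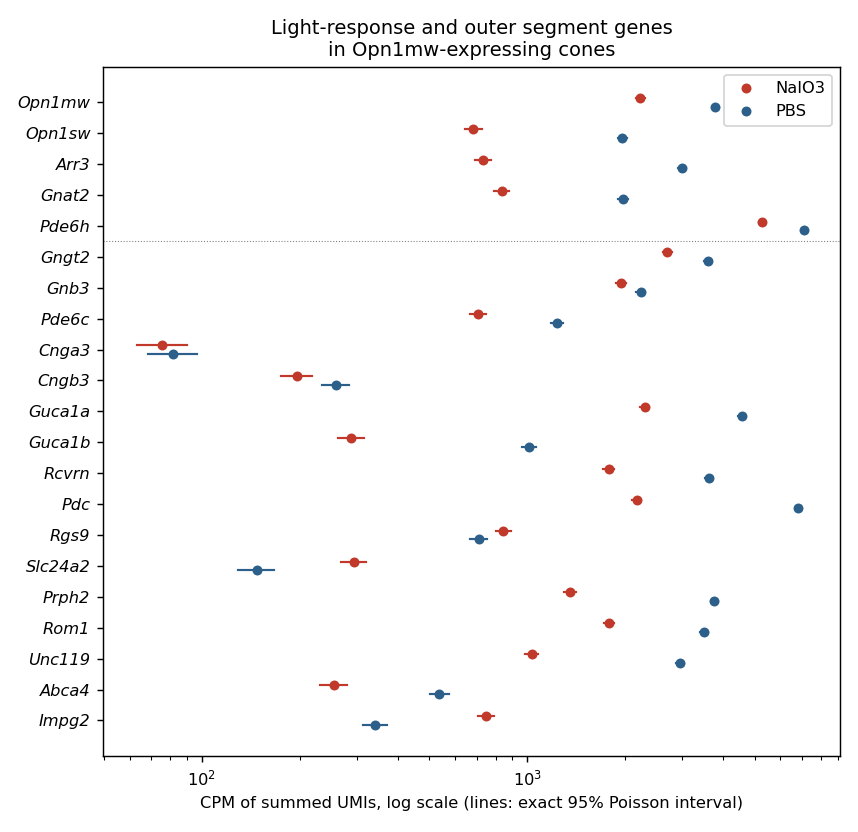
Levels of light-response and outer segment genes in Opn1mw-expressing cones, as CPM of summed UMIs on a log axis, with exact 95% Poisson intervals as lines, for NaIO3 (132 cells, above) and PBS (109 cells, below). The 5 genes above the dotted line were used to choose the cells. Slc24a2, Rgs9 and Impg2 were higher in NaIO3 and the other genes lower, Cnga3 within its interval.

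Outer segment genes, which build and hold the discs and cilium, were split. Of 25 measured, 4 were higher in NaIO3 (among them Impg2, Mak and Rpgr) and 8 lower, with a median of -0.23. The disc-rim genes Prph2 and Rom1 stood at 1355 and 3757 CPM (0.361, 0.344 to 0.378) and at 1782 and 3498 CPM (0.509, 0.487 to 0.533). Abca4, the retinoid transporter of the discs, stood at 255 and 537 CPM (0.474). In the cells with at most 3% rod genes, 7 were higher and 1 lower, and the median was 0.19. Prph2 was then at 1285 and 1698 CPM (0.757), Rom1 at 1711 and 1495 CPM (1.14) and Abca4 at 247 and 262 CPM (0.942, 0.780 to 1.14). Unc119, which carries transducin to the outer segment, was lower either way, at 1032 and 2960 CPM (0.349) in all cones and 1027 and 2731 CPM (0.376) without them. Impg2, a proteoglycan of the matrix between photoreceptors, was higher either way, at 747 and 341 CPM (2.19, 1.98 to 2.43) and at 734 and 305 CPM (2.41). In rods Impg2 stood at 828 and 216 CPM.

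Genes linked to cone fate and opsin choice moved little as a list, with 4 of 28 higher (Aldh1a1, Neurod1, Lhx4 and Otx2), 2 lower (Esrrb and Nrl) and a median of 0.33. Neurod1, a transcription factor that maintains photoreceptors, stood at 2543 and 1311 CPM (1.94, 1.84 to 2.04). Thrb stood at 522 and 357 CPM (1.46, 1.32 to 1.62). Without the cells over 3% rod genes it was at 531 and 535 CPM (0.992, 0.870 to 1.13). Crx stood at 805 and 829 CPM (0.971, 0.900 to 1.05), and at 810 and 787 CPM (1.03, 0.924 to 1.15) without those cells. Nrl, the rod fate factor, stood at 369 and 966 CPM (0.382) in all cones and at 351 and 129 CPM (2.71, 2.13 to 3.50) without the rod-loaded cells. Esrrb, an orphan nuclear receptor, stood at 58.3 and 98.4 CPM (0.592, 0.456 to 0.765), and at 53.0 and 17.0 CPM (3.11, 1.61 to 6.73) without them. Aldh1a1, a retinoic acid-making enzyme, stood at 11.9 and 2.42 CPM (4.92), at 12.8 and 1.70 CPM (7.50) without the rod-loaded cells, and at 4.20 and 2.42 CPM (1.74, 0.413 to 8.39) without the 17 cells with other types' markers. With the rod-loaded cells left out, 11 of 28 were higher and 1 lower, beside 28.3% and 16.6% of all genes.

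Genes of the ribbon synapse, the cone's output, had 4 of 27 higher (Pclo, Syt1, Bsn and Unc13b), 1 lower (Lrit2) and a median of 0.27. Syt1, the calcium sensor of vesicle release, stood at 1957 and 1028 CPM (1.90, 1.79 to 2.02), and Pclo, a scaffold of the active zone, at 274 and 130 CPM (2.11, 1.79 to 2.49). Lrit2 stood at 88.6 and 197 CPM (0.450, 0.368 to 0.548). Bsn, another scaffold of the active zone, stood at 26.2 and 14.5 CPM (1.81, 1.07 to 3.10), and at 25.5 and 23.8 CPM (1.07, 0.571 to 2.13) without the cells over 3% rod genes. Retinoid handling genes had 3 of 7 higher (among them Rdh10 and Dhrs3) and 0 lower, and in the cells without other types' markers 2 of 6. With the cells over 3% rod genes left out, Rdh10 stood at 26.2 and 6.81 CPM (3.84) and Dhrs3 at 73.4 and 17.0 CPM (4.31), where Dhrs3 had stood at 76.1 and 50.1 CPM (1.52) in all cells.

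Most genes of injury and of IL-6 family signalling were higher in NaIO3. Of 15 measured, 12 were at least 1.5-fold higher and 0 lower, with a median log2 ratio of 2.997. The sum over all 25 listed genes, which does not depend on the 10 CPM limit, was 1575 CPM in NaIO3 and 317 CPM in PBS. Edn2, endothelin-2, which photoreceptors are known to make after injury, stood at 92.2 CPM in NaIO3 and had no UMI in PBS. Edn2 was 50.9-fold higher against a floor of 3 UMIs over the PBS cones, with an exact interval from 40.9 upward. It was found in 65 of 132 NaIO3 cones (49.2%) and in 0 of 109 PBS cones, which allows a share of up to 3.33% of cones with a UMI and sets no limit on cones that express it below detection. At 1500 UMIs per cell the NaIO3 share was 12.1%. Rods, another photoreceptor, had Edn2 at 178 and 2.99 CPM, and in NaIO3 43.1% of rods had a UMI (21.4% when thinned). Fgf2, a growth factor that protects photoreceptors, stood at 243 and 10.9 CPM (22.3, 13.9 to 38.0). It was seen in 77.3% of NaIO3 cones and 12.8% of PBS cones, and in 23.5% and 0.917% when thinned, where rods had 40.8% and 2.83%. When the cells over 3% rod genes were left out, Fgf2 stood at 244 and 5.11 CPM (47.7, 16.2 to 233) and Edn2 was at least 17.4-fold higher.

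Of the path from the IL-6 family receptor to the nucleus, the receptors, Stat3, Socs3, Cebpd and Bcl3 were at least 1.5-fold higher, and 2 kinases between them did not reach 1.5-fold. The receptor genes Lifr and Il6st stood at 131 and 52.5 CPM (2.49, 1.93 to 3.23) and at 62.45 and 22.35 CPM (2.79, 1.90 to 4.18). The kinase genes Jak1 and Jak2 stood at 112 and 89.4 CPM (1.26, 1.01 to 1.57) and at 29.1 and 22.3 CPM (1.30, 0.834 to 2.06), the second with an interval that includes no difference. Stat3, the transcription factor they activate, stood at 199 and 43.5 CPM (4.57, 3.53 to 5.98). Socs3, its feedback inhibitor, stood at 91.6 and 11.5 CPM (7.98, 4.94 to 13.6), and in rods at 83.9 and 0.254 CPM. Cebpd, a transcription factor of the acute phase, stood at 146 and 1.81 CPM (80.4, 27.2 to 393) and was found in 78 and 2 cells. Bcl3, a partner of NF-kB, stood at 51.2 CPM in NaIO3 with no PBS UMI (at least 28.2-fold, 45 and 0 cells). In the cells with at most 3% rod genes, Lifr stood at 130 and 28.9 CPM (4.48, 2.73 to 7.84) and Bcl3 was at least 9.75-fold higher. Without the 17 cells holding other types' markers, 11 of 14 members were higher with a median of 2.39. For Edn2, Fgf2, Stat3, Cebpd and Bcl3 the cell with the most UMIs held 3.23% to 6.98% of them, so many cells contributed.

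Serpina3n and Lcn2 were different in that respect. Serpina3n, a protease inhibitor of reactive glia, stood at 56.5 CPM in NaIO3 with no PBS UMI (at least 31.2-fold), but lay in 11 cells and 33.7% of it in 1. Without the 17 cells it stood at 9.81 CPM (at least 5.41-fold). Lcn2, lipocalin-2, stood at 217 and 11.5 CPM (18.9, 11.9 to 31.7), with 74.7% of its NaIO3 UMIs in 1 cell. Without the 17 cells it stood at 42.0 and 11.5 CPM (3.66, 2.16 to 6.50). Without the cells over 3% rod genes Serpina3n was at least 11.6-fold higher.

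Immediate early genes, which are switched on within minutes of a stimulus and also by cell dissociation, had 12 of 14 higher and 0 lower, with a median of 1.37. Fos stood at 1028 and 70.7 CPM (14.6, 12.1 to 17.7), Junb at 401 and 34.4 CPM (11.6, 8.88 to 15.5) and Egr1 at 902 and 115 CPM (7.82, 6.72 to 9.13). Fosb stood at 192 and 1.81 CPM (106, 35.8 to 515), in 88 and 3 cells. With the cells over 3% rod genes left out, Fosb stood at 200.5 and 3.41 CPM (58.9, 16.2 to 488) and Egr1 at 948 and 80.03 CPM (11.84, 8.86 to 16.2). Rods had the same direction, with Fos at 1207 and 117 CPM. With TMM scaling 10 were higher and 1 lower. Handling time during dissociation cannot be told apart from treatment, since each group was prepared as 1 pool.

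Interferon-stimulated genes had 20 of 21 measured members higher and 0 lower, with a median of 3.34, and 7 members without a PBS UMI entered it at the floor of 3 UMIs. Members low in PBS were measured only through their NaIO3 level, which favours such a count. The sum over all 32 listed genes, which does not depend on that limit, was 812 CPM in NaIO3 and 175 CPM in PBS. Ifit3 stood at 52.9 and 0.604 CPM (87.6, 15.3 to 3500.2) and Ifit1 at 50.6 CPM with no PBS UMI (at least 27.9-fold). They were seen in 33 and 23 NaIO3 cones and in 1 and 0 PBS cones. Irf9 and Stat2, which form the transcription factor of the type I response, stood at 67.2 and 6.64 CPM (10.1, 5.44 to 20.8) and at 54.7 and 10.9 CPM (5.03, 3.01 to 8.87). Without the cells over 3% rod genes Stat2 stood at 58.7 and 6.81 CPM (8.62, 3.26 to 32.3), and Ifit3, then also with no PBS UMI, and Ifit1 were at least 9.75-fold and 9.999-fold higher. At 1500 UMIs per cell an Ifit3 UMI was found in 5.30% of NaIO3 cones and 0 of 109 PBS cones, and in 5.40% and 0.0476% of rods, which hold it too.

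Genes of MHC class I presentation had 15 of 18 higher and 0 lower, with a median of 2.01. Their sum over all 19 listed genes was 1325 CPM in NaIO3 and 579 CPM in PBS. H2-D1 and H2-K1, the heavy chains, stood at 284 and 62.8 CPM (4.52, 3.65 to 5.64) and at 202 and 23.6 CPM (8.56, 6.13 to 12.3). B2m, their light chain, stood at 79.1 and 0.604 CPM (131, 23.1 to 5212), in 57 cells and 1 cell. Of the processing genes, Psme1 stood at 31.5 and 0.604 CPM and Tapbp at 99.3 and 46.5 CPM (2.14, 1.62 to 2.84). In C1q-expressing cells of the NaIO3 library B2m stood at 3822 CPM, and in rods at 147 and 0.954 CPM. Without the 17 cells holding other types' markers B2m was at 70.8 and 0.604 CPM (117, 20.6 to 4674), and 14 of 17 members were higher. When the cells over 3% rod genes were left out, B2m stood at 82.4 and 1.70 CPM (48.4, 8.53 to 1925), Psme1 at 30.01 and 1.70 CPM (17.6) and H2-K1 at 213.9 and 40.9 CPM (5.23, 3.46 to 8.28).

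Antioxidant genes had 9 of 28 higher, 4 lower and a median of 0.34, shares near the background. The metallothionein genes Mt1 and Mt2, which bind metals, led. Mt1 stood at 457 and 16.3 CPM (28.0, 19.1 to 42.8) and Mt2 at 156 and 0.604 CPM (259, 46.1 to 10268), with 29.8% and 28.9% of the NaIO3 UMIs in 1 cell each. Without the 17 cells, Mt1 was at 193 and 16.3 CPM (11.8) and Mt2 at 65.9 and 0.604 CPM (109). In the cells with at most 3% rod genes, Mt1 was at 475 and 10.2 CPM (46.5), and Mt2, then with no PBS UMI, was at least 31.6-fold higher. Müller-gene cells of the NaIO3 library had 7185 and 1862 CPM of them. Sod1, superoxide dismutase, stood at 168 and 76.1 CPM (2.20, 1.78 to 2.74), and Gclm, a subunit of the glutathione-making ligase, at 73.8 and 30.8 CPM (2.39, 1.72 to 3.39). The lower 4 were Txn1, Nxnl1, Nxnl2 and Gstp1. Nxnl1 and Nxnl2 encode the rod-derived cone viability factors, thioredoxin-like proteins of photoreceptors. Nxnl2 stood at 155 and 436 CPM (0.355, 0.307 to 0.409) and Nxnl1 at 164 and 333 CPM (0.491, 0.424 to 0.569). Nxnl2 was also lower without the cells over 3% rod genes (0.406), and Nxnl1 was then at 156 and 184 CPM (0.851, 0.676 to 1.08).

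Chaperone genes had 9 of 22 higher and 0 lower, with a median of 0.45, and 7 higher and 3 lower with TMM scaling. Hsp90ab1 stood at 782 and 359 CPM (2.18, 1.98 to 2.41) and Hsph1 at 151 and 66.4 CPM (2.27, 1.81 to 2.87). Iron genes had 2 of 8 higher (Cp and Ireb2) and 1 lower. The lower one was Tfrc, the transferrin receptor, at 88.6 and 228 CPM (0.388, 0.319 to 0.470). The median of the iron list was 0.20, and with TMM scaling it was -0.25, with 1 of 9 higher and 2 lower. Lipid and cholesterol genes had 6 of 16 higher and 2 lower (Srebf1 and Idi1). Abca1, the cholesterol exporter, stood at 52.9 and 15.1 CPM (3.51, 2.23 to 5.70). Without the cells over 3% rod genes it stood at 53.6 and 6.81 CPM (7.87, 2.96 to 29.6), and Srebf1, a regulator of lipid synthesis genes, at 34.5 and 35.8 CPM (0.964, 0.573 to 1.68), where Srebf1 had stood at 33.9 and 57.4 CPM (0.591) in all cells.

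Cell death genes had 5 of 17 higher (Gsdme, Trp53, Mcl1, Parp1 and Bcl2l11) and 2 lower (among them Bcl2), with a median of 0.25 that was -0.14 with TMM scaling, again shares near the background. Gsdme, which forms pores when cleaved by caspases, stood at 406 and 172 CPM (2.36, 2.06 to 2.73), against 33.7 and 21.5 CPM in rods. When the cells over 3% rod genes were left out, it was at 418 and 308 CPM (1.36, 1.15 to 1.61). Bcl2, which restrains cell death, stood at 19.6 and 32.6 CPM (0.602, 0.378 to 0.945), and at 20.4 and 22.1 CPM (0.923, 0.471 to 1.92) without those cells.

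Energy genes were lower in part. Of 24 glycolysis and lactate genes, 2 were higher (Pfkfb2 and Hk1) and 11 lower, with a median of -0.50, and with TMM scaling 0 were higher and 15 lower. Aldoa, Pkm and Eno1 stood at 1287 and 2416 CPM (0.532), at 989 and 1857 CPM (0.533) and at 453 and 1139 CPM (0.398, 0.365 to 0.433). Pgam1 stood at 316 and 813 CPM (0.389), and Bsg, basigin, which brings lactate transporters to the membrane, at 391 and 929 CPM (0.420, 0.383 to 0.461). Mitochondrially encoded genes had 0 of 13 higher and 9 lower, with a median of -1.07. Their sum was 47383 CPM in NaIO3 and 104702 CPM in PBS. The largest difference was in mt-Atp6, at 6561 and 20489 CPM (0.320). Nuclear genes of oxidative phosphorylation had 3 of 77 higher and 1 lower, with a median of -0.07, and 1 higher and 16 lower with TMM scaling. Cells were admitted only up to 15% mitochondrial UMIs, and the highest cones had 13.8% in NaIO3 and 14.97% in PBS, so the mitochondrial values are cut off by the rule and are given as a description. Rods, under the same limit, had medians of 2.09% and 7.68%.

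**Figure D4:**
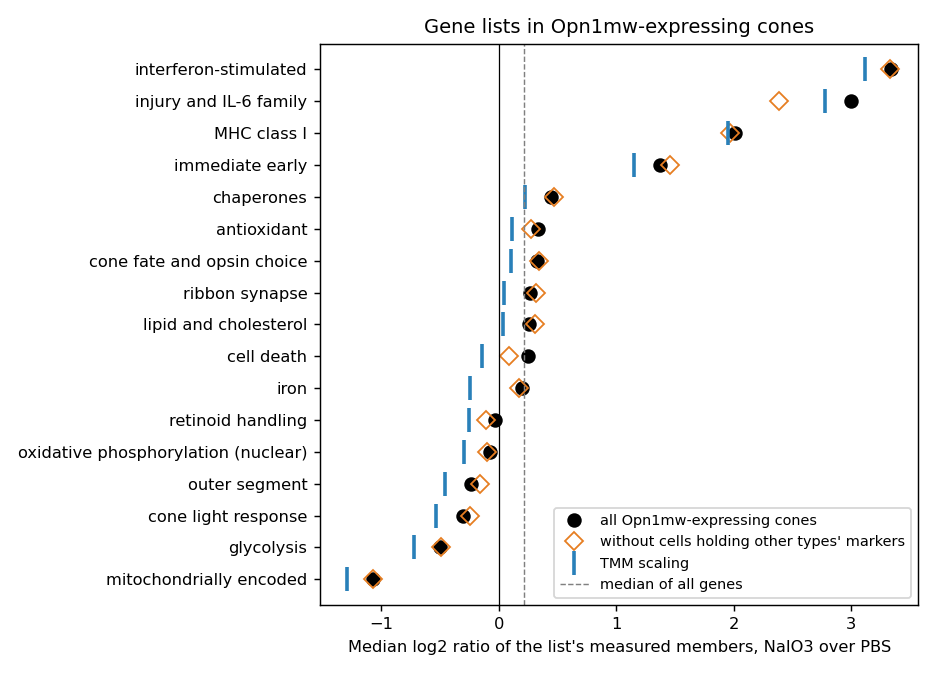
Median log2 ratio, NaIO3 over PBS, of the measured members of 17 gene lists in Opn1mw-expressing cones. Points are all cells, diamonds leave out the 17 NaIO3 cells with other types' markers, ticks use TMM scaling, and the dashed line is the median of all genes (0.22). Interferon, injury, MHC class I and immediate early genes stand right of it under each setting, and mitochondrially encoded genes furthest left.

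Over the whole transcriptome, 12 genes on each side were picked by the interval bound nearest to a ratio of 1. On the higher side these were Mt2, Trpm1, Edn2, Fosb, Neurod4, Cebpd, Serpina3n, B2m, Bcl3, Ifit1, Mt1 and Cp. Trpm1 and Neurod4, a channel and a transcription factor of bipolar cells, stood at 93.4 and 64.8 CPM in NaIO3 with no PBS UMI (at least 51.5-fold and 35.8-fold). They lay in 14 and 15 cells, with 50.3% of Trpm1 in 1 cell, and without the 17 cells both stood at 4.91 CPM (at least 2.71-fold). In the cells with at most 3% rod genes, they were at least 19.5-fold and 13.6-fold higher. Cp, ceruloplasmin, a Müller marker, stood at 111 and 2.42 CPM (46.0, 17.7 to 171) in 11 and 3 cells, and at 23.8 and 2.42 CPM (9.86) without them. Edn2, Fosb, Cebpd, B2m, Bcl3 and Ifit1 moved by less than 1.5-fold when the 17 cells were left out.

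The genes described on the lower side fell into genes that rods hold at higher levels and genes that they hold at lower ones. Guca1b, Pdc, Gngt1, Fam3c, Gas7 and Tmlhe were higher in rods of both libraries. Fam3c stood at 113 and 402 CPM in all cones (0.281) and at 104 and 124 CPM without the cells over 3% rod genes (0.837, 0.632 to 1.12). Gngt1 stood at 3213 and 9788 CPM (0.328) and then at 3067 and 4824 CPM (0.636). Gas7 and Tmlhe kept their size, at 17.2 and 95.4 CPM (0.181) and at 13.1 and 74.3 CPM (0.176), and at 0.171 and 0.211 without those cells.

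Gzmm, Hopx and Tmsb10 were lower in rods than in these cones. Tmsb10, thymosin beta-10, an actin-binding peptide, stood at 480 and 1494 CPM (0.321, 0.296 to 0.348), against 28.5 and 24.7 CPM in rods. Gzmm, granzyme M, stood at 152 and 560 CPM (0.272, 0.236 to 0.312), against 51.6 and 178 CPM in rods. Hopx, an atypical homeobox gene, stood at 57.1 and 213 CPM (0.269, 0.212 to 0.337), against 9.06 and 5.47 CPM in rods. All 3 were further apart without the cells over 3% rod genes, at ratios of 0.184, 0.182 and 0.158. Gstp1, a glutathione transferase, stood at 35.7 and 144 CPM (0.248, 0.184 to 0.331) and at 37.5 and 144 CPM in rods, close to the levels in the cones.

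Opn1sw-dominant cones gave the same direction for most of these genes. In them 884 of 7352 genes were at least 2-fold higher in NaIO3 and 243 (3.31%) lower. Both classes come from the same libraries, so their ratios are not independent. Edn2 stood at 76.2 CPM with no PBS UMI, Fgf2 at 176 and 12.2 CPM (14.5, 8.82 to 25.01) and Stat3 at 190 and 40.3 CPM (4.70, 3.42 to 6.51). For 30 of 578 listed or named genes the intervals of the ratio did not overlap between the classes, an untested difference, with the ratio higher in the Opn1mw-expressing cones for 13 and lower for 17. The examples here were chosen after their values were seen. Socs3 stood at 108 and 60.2 CPM (1.80, 1.29 to 2.50) in the Opn1sw-dominant cones, against 7.98 in the Opn1mw-expressing ones, and its PBS level of 60.2 CPM compares with 11.5 CPM in PBS Opn1mw-expressing cones. Gzmm was at 144 and 317 CPM (0.454, 0.356 to 0.573), against 0.272, and Tmsb10 at 704 and 1479 CPM (0.476, 0.428 to 0.529), against 0.321. Fosb had a ratio of 17.8 (10.3 to 32.99) in the Opn1sw-dominant cones, against 105.7, Egr1 4.97 (4.25 to 5.84), against 7.82, and H2-K1 3.897 (2.75 to 5.56), against 8.56. Lcn2 stood at 8.46 and 9.60 CPM (0.882, 0.251 to 2.55) in the Opn1sw-dominant cones, against 18.9, a value that rests on 1 cell for most of its UMIs and overlaps without the 17 cells.

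Opn1mw-expressing cones were then compared with Opn1sw-dominant cones within each library, where both share the preparation. Their median depths were 10816.5 and 8880 UMIs in NaIO3 and 10091 and 10085 UMIs in PBS, and the NaIO3 Opn1sw-dominant cones held 590819 summed UMIs in 51 cells. RNA of other cell types also differed between the classes in NaIO3. Summed bipolar markers stood there at 740 and 1549 CPM (0.478) and summed Müller markers at 950 and 366 CPM (2.60). A marker limit was passed by 17 of 132 and 9 of 51 cells. Summed rod markers had ratios of 0.836 in NaIO3 and 0.904 in PBS. The part of this RNA in the differences below was not tested. Genes at least 2-fold higher were 129 of 7484 (1.72%) in NaIO3 and 40 of 6696 (0.597%) in PBS, and lower 154 (2.06%) and 33 (0.493%). In both libraries 9 of 6431 (0.140%) were higher and 15 (0.233%) lower, or 17 and 25 without the cells over 3% rod genes. An interval on the same side of 1 in both libraries was found for 52 higher and 51 lower genes of 3197.

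Thrb, with its known role in opsin choice, was among the 10 genes named on the higher side. It stood at 522 CPM in Opn1mw-expressing and 328 CPM in Opn1sw-dominant cones of NaIO3 (1.59, 1.36 to 1.87), and at 357 and 249 CPM in PBS (1.43, 1.26 to 1.63). Fzd10, a Wnt receptor, stood at 114 and 52.5 CPM in NaIO3 (2.18, 1.48 to 3.29) and at 144 and 65.3 CPM in PBS (2.21, 1.75 to 2.82). Samd7, a polycomb partner of photoreceptors, stood at 212 and 137 CPM in NaIO3 (1.54) and at 161 and 84.5 CPM in PBS (1.90). The repair glycosylase gene Smug1 had ratios of 1.89 and 2.49 in NaIO3 and PBS, the lipid-binding gene Osbpl3 2.24 and 1.85, the kinase gene Cit 1.88 and 2.34 and Tshz2, a zinc finger gene, 1.73 and 1.89. Nptx1, a synaptic pentraxin, had 1.86 and 1.55, Mgst3 1.74 and 1.60 and Wwc1 1.70 and 1.60. All 10 lay above 1 with their intervals in both libraries because they were picked that way. When thinned to 1500 UMIs in NaIO3, Fzd10 and Tshz2 did not lie above 1.

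On the lower side, Ccdc136 was furthest apart by its interval. It stood at 286 CPM in Opn1mw-expressing and 1362 CPM in Opn1sw-dominant cones of NaIO3 (0.210, 0.187 to 0.235), and at 263 and 1120 CPM in PBS (0.235, 0.211 to 0.261). A Ccdc136 UMI was found in 52.3% and 98.04% of these cones in NaIO3 and in 46.8% and 100% in PBS, and when thinned in 21.2% and 86.3%, and in 27.5% and 84.9%. Rods had one in 2.42% (NaIO3) and 1.38% (PBS). In the annotation of GRCm38 Ccdc136 lies next to Opn1sw on chromosome 6, at chr6:29396309-29426994 on the plus strand, and Opn1sw at chr6:29376671-29388468 on the minus strand. This GENCODE span of Opn1sw reaches upstream of the RefSeq start used for the promoter. Cacna1h, a low-voltage calcium channel, stood at 17.2 and 57.5 CPM in NaIO3 (0.2997, 0.176 to 0.507) and at 14.5 and 79.4 CPM in PBS (0.183, 0.113 to 0.284). Vax2, a homeobox factor of the ventral retina, stood at 32.7 and 64.3 CPM in NaIO3 (0.509, 0.330 to 0.790) and at 24.8 and 74.2 CPM in PBS (0.334, 0.228 to 0.480). Vax2os, transcribed against Vax2, had ratios of 0.517 and 0.373. The 2 genes overlap at chr6:83711264-83712201, and since no source used here says that counting used strand, their UMIs cannot be told apart there.

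The other lower genes were Syndig1l (0.318 in NaIO3, 0.450 in PBS), Rtl8a (0.400, 0.548), Kcne2 (0.449, 0.765), Gulo (0.572, 0.689), Guca1a (0.709, 0.840) and Sag (0.755, 0.813). Sag, the rod arrestin that cones also make, stood at 4991 and 6606 CPM in NaIO3 and at 6479 and 7969 CPM in PBS. Sag belongs to the summed rod markers, whose ratios were 0.836 and 0.904. Fam19a3, a gene of the short-wave cone list, stood at 172 and 242 CPM in NaIO3 (0.710, 0.579 to 0.874) and at 194 and 231 CPM in PBS (0.839, 0.720 to 0.978). Nr2f2, a nuclear receptor, stood at 57.7 and 11.9 CPM in NaIO3 (4.87, 2.28 to 12.4) and at 44.1 CPM with no UMI in PBS Opn1sw-dominant cones (at least 22.96-fold). Of the list of cone fate and opsin choice, 4 of 28 were at least 1.5-fold higher in NaIO3 (Thrb, Nr2f2, Samd7 and Aldh1a1) and 1 lower (Vax2), beside 9.75% and 11.0% of all genes. In PBS 3 of 27 were higher (Nr2f2, Samd7 and Lhx4) and 1 lower (Vax2), beside 6.49% and 4.25%. Most members were thus within 1.5-fold between the classes. The Nr2f2 ratios rest on few UMIs in the Opn1sw-dominant cones of NaIO3 (11.9 CPM) and on none in those of PBS.

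**Figure D5:**
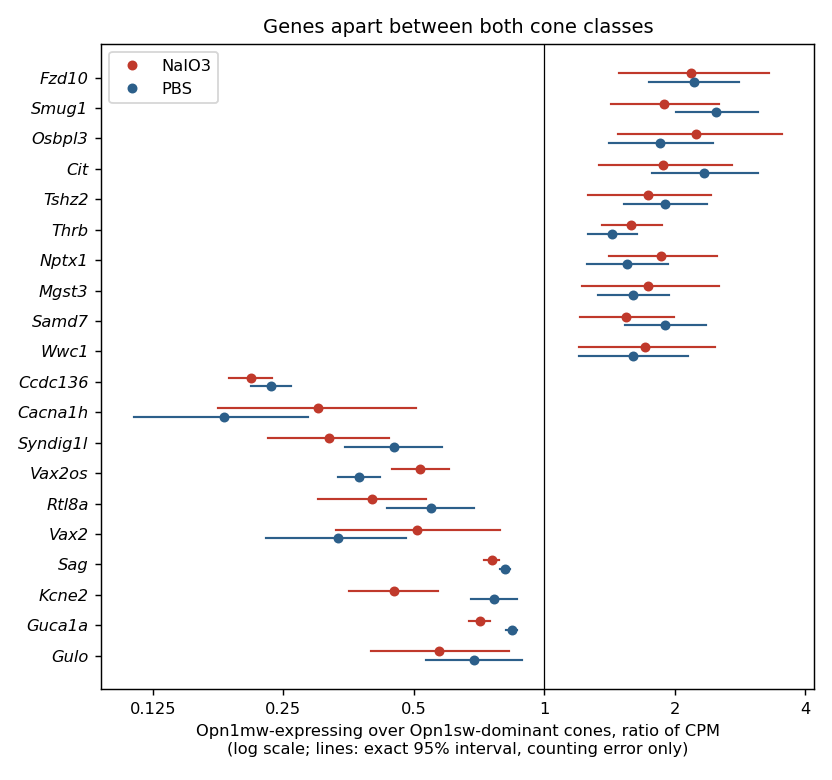
Ratio of CPM, Opn1mw-expressing over Opn1sw-dominant cones, on a log axis for the 10 highest and 10 lowest named genes in NaIO3 (above) and PBS (below), with exact 95% intervals. The intervals lie on the same side of 1 in both libraries for all 20 because the genes were picked that way. Ccdc136 lies at 0.210 and 0.235.

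Likeness to Opn1mw was measured as Pearson's correlation over cones, within each library, of log values normalised to 10000 UMIs per cell, for 6477 genes. Over 183 NaIO3 and 202 PBS cones, Thrb was most like it (r = 0.44 and 0.51), then Nptx1 (0.41 and 0.49), Ckb (0.41 and 0.39), Mpp6 (0.36 and 0.45) and Chgb (0.33 and 0.35). Most opposite were Opn1sw (-0.67 and -0.51), Ccdc136 (-0.57 and -0.48), Cacna1h (-0.36 and -0.46), Vax2 (-0.31 and -0.37) and Galnt7 (-0.31 and -0.34). Opn1sw and Opn1mw both count toward the cone gene and opsin UMIs that the rule requires, so their correlation is in part set by the rule. The cones of a library share its depth range and its rod RNA, so these values only describe it.

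Among the Opn1mw-expressing cones, those with no Opn1sw UMI were compared with those with both opsins for genes that were chosen because they are linked to the cone classes or to injury. Nr2f2 stood at 76.7 CPM in the 85 NaIO3 cones without Opn1sw and at 32.1 CPM in the 47 mixed ones (2.39, 1.48 to 3.996), and at 60.0 and 28.6 CPM in the 61 and 48 PBS cones (2.10, 1.26 to 3.58). Thrb stood at 580 and 443 CPM in NaIO3 (1.31, 1.14 to 1.51) and at 407 and 308 CPM in PBS (1.32, 1.12 to 1.56). Ccdc136 stood at 91.2 and 549 CPM in NaIO3 (0.166, 0.130 to 0.210) and at 25.7 and 493 CPM in PBS (0.0522, 0.0320 to 0.0808). Fam19a3 did not keep its direction, at 146 and 207 CPM in NaIO3 (0.707, 0.557 to 0.896) and at 205 and 183 CPM in PBS (1.12, 0.891 to 1.40). Edn2 and Fgf2 differed within their intervals in NaIO3, at 88.1 and 97.7 CPM (0.901, 0.649 to 1.25) and at 259 and 221 CPM (1.17, 0.958 to 1.44). For these injury genes a difference was not detectable at this depth. Gngt1 was lower without Opn1sw, at 3120 and 3340 CPM in NaIO3 (0.934, 0.885 to 0.986) and at 8491 and 11048 CPM in PBS (0.769, 0.745 to 0.793), so RNA of a rod gene also differed between them.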

How the data were processed

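The authors deposited unnormalised UMI counts, a gene by barcode matrix of 31053 genes from Cell Ranger 3.0.2 after its cell filter, per the file headers. The submitters' processing notes name the build mm10. Annotation, strand setting and further filters are not given in the sources used here. Groups came from the treatment label, 1 library of 6 pooled mice each. The cells, gene lists and limits were chosen with earlier results of these data known.

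The counts of all cells in a class were added up and scaled to CPM of the summed UMIs. Ratios carry exact conditional binomial intervals, shares exact Clopper-Pearson intervals and levels exact Poisson intervals, all at 95% and for counting error only. A gene without a UMI in 1 group was compared with a floor of 3 UMIs over that group (1.78 CPM in NaIO3, 1.81 CPM in PBS), and 1 UMI was worth 0.595 and 0.604 CPM. Folds given as at least a value are set against this floor and leave out counting error in the other group. The exact interval of such a ratio begins lower, at 40.9 for Edn2. Named genes needed 50 CPM in either group and 30 summed UMIs and were ranked by the bound nearest to 1 (12 on each side between treatments, 10 between cone classes). Between cone classes the ranking used the smaller bound of the 2 libraries, and both had to lie on the same side of 1. Mitochondrial, ribosomal, sex-linked, unnamed and rule genes were left out of that ranking. Of each list up to 4 members with the most UMIs and those past 2-fold could be named. Where a count was 5 or fewer its genes are named in any case, chosen after their values were seen, apart from a few genes that are not reported here, as were Rgs9bp, Txn1, Cnga3, Cngb3, Thrb, Stat2 and Nr2f2. Rods were cells with at least 2% rod genes and at most 0.1% of cone or bipolar genes. Doublets were called with Scrublet in scanpy 1.11.5 at an expected rate of 6%. TMM factors came from edgeR 4.0.16 in R 4.3.3. Python 3.11.15, numpy 2.4.6, pandas 2.3.3 and scipy 1.17.1 were used. The summing and intervals were tested on simulated counts.

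Alternatives were Opn1mw thresholds of 10% and 50%, 10 opsin UMIs, 2500 UMIs a cell, 5% mitochondrial UMIs, thinning to 1500 UMIs, rod and doublet limits, 3 scalings and 2 filters on low counts. No columns of other series were present. Positions are from GENCODE M21 (GRCm38) and promoter sequences from RefSeq. Protein sequences were not used here.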

Additional observations from a re-analysis of the deposited data

How the results depend on the processing

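Each group was 1 library, so nothing here measures spread between mice. With Opn1mw over 10% of opsin UMIs the class made up 78.7% of NaIO3 and 68.3% of PBS cones, and 19 genes were at least 2-fold higher in both libraries than in Opn1sw-dominant cones; with over 50% the shares were 59.6% and 41.6%. At 1500 UMIs per cell the NaIO3 share was 52.7%, 172 genes were at least 2-fold higher in NaIO3 than in PBS, and 5 and 3 genes were higher and lower between the cone classes in both libraries. TMM scaling gave 400 higher and 412 lower genes between treatments, and totals without mitochondrial, rule and rod genes 371 lower. With no filter other than 1 UMI, 1979 were higher and 888 lower between treatments and 72 and 121 between classes. With 50 CPM and 50 UMIs, these counts were 338 and 116, and 3 and 4. At most 5% mitochondrial UMIs left 68 NaIO3 and 3 PBS cones, with 843 lower genes between treatments and 1 and 2 between classes.

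Without the cells over 3% rod genes, chosen after seeing the data, 448 genes were lower between treatments and 17 and 25 between classes. Without the cells holding other types' markers, also chosen afterwards, 14 were higher between classes. The log2 ratio, NaIO3 over PBS, changed sign without the cells over 3% rod genes for Guca1b (0.15), Nrl (1.44), Rom1 (0.19), Fscn2 (0.73), Esrrb (1.64), Crx (0.04) and Thrb (-0.01). It changed sign at 5% mitochondrial UMIs for Opn1sw (0.30), Pde6c (0.24) and Parp1 (-0.53), and when thinned for Atf3 (-0.28). Between classes in NaIO3 it changed sign when thinned for Fzd10 (-0.16) and Tshz2 (-0.16). For these the cause was not tested. Over all settings, 1139 of 1581 gene values between treatments and 439 of 515 between classes stayed within their 95% interval, and 222 of 234 list medians within 1.5-fold. The 10% rod limit and the doublet calls removed none of the Opn1mw-expressing cones. No paired analysis was possible because each group is 1 library and no result comes from a test across samples.

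At these summed depths 1 UMI was worth 0.595 CPM in NaIO3 and 0.604 CPM in PBS, and ratios that rest on 1 PBS UMI (Ifit3, B2m, Psme1 and Mt2) carry wide intervals. The number of barcodes of each type, bead selection and dissociation cannot be told apart from treatment.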
